A study of Mus musculus with 21 samples.

Results

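The early effect of regulatory T cell (Treg) depletion was read from 5 of the 21 samples of the series, chosen by title: 2 DTR+ CTx samples (replicates 2 and 3) and 3 DTR- CTx samples (replicates 1, 2 and 3), all taken at day 4. Each was whole tibialis anterior (the shin muscle) from male C57BL/6 mice aged 8 weeks, and was measured on an expression array. Both genotypes received cardiotoxin, a snake venom toxin that destroys muscle fibres, in that muscle at day 0, and both received diphtheria toxin on alternate days until the muscle was taken. Toxin exposure was therefore shared, and the groups differ by the Foxp3-DTR allele, which by its name puts the diphtheria toxin receptor under the control of Foxp3. Separate animals are not stated for the samples of either group, so a p-value here measures only how far these samples differ from one another, and that spread could be technical. Only 2 DTR+ samples exist at this time, and the labels give no measure of how far Tregs were depleted in them.

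Tregs are CD4+ T cells that restrain other lymphocytes and are defined by the transcription factor Foxp3. In injured muscle they gather while monocytes and macrophages clear dead fibres and muscle stem cells build new ones. Lymphocytes restrained by Tregs include T cells and natural killer (NK) cells that secrete interferon gamma, which induces guanylate-binding proteins, immunity-related GTPases and antigen presentation. Type I interferons are a separate family, made by many cells on sensing nucleic acids, and induce antiviral genes such as Irf7, Mx1 and the Ifit and Oas families.

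Fibre and repair markers were high in all 5 samples. Ckm, the muscle creatine kinase, lay between 12.52 and 13.66 on the log2 intensity scale, Myh3, the embryonic myosin of new fibres, between 12.42 and 12.88, and Adgre1, which encodes the macrophage marker F4/80, between 10.69 and 11.28. The neutrophil markers S100a8, S100a9, Ly6g and Retnlg, the B cell markers Cd79a and Ms4a1 and the keratinocyte markers Krt5 and Krt14 lay below the level required for testing (6.66 to 6.78) on all 5 arrays. The 5 arrays had median intensities of 144.19 to 155.4. Precision is limited by how few arrays there are: the median standard error (SE) of a day 4 log2 fold change was 0.19. The samples did not group by genotype in correlations over all 24922 probe sets, before any filter. DTR+ replicate 2 correlated most with DTR- replicate 3 (Pearson r = 0.9927) and DTR+ replicate 3 most with DTR- replicate 2 (0.9911). The DTR+ samples correlated with each other at 0.9818. DTR- replicate 1 stood apart. The mean log2 intensity of 45 small nucleolar and nuclear RNAs was 9.80 in it and 8.36 to 8.47 in the other 4 samples, and that of 32 mature fast fibre genes was 11.70 against 12.22 to 12.49.

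Foxp3 itself could not be used to follow the targeted cells. Its log2 intensity was 6.27 and 6.51 in the DTR+ samples and 6.35, 6.34 and 6.51 in the DTR- samples, so the groups overlapped and all 5 values were below the level required for testing. The fitted log2 fold change of -0.01 ± 0.17 (SE) therefore lies between values with no measured order. Of the 12 Treg genes tested, 6 were above and 6 below 0, with a median log2 fold change of 0.02. The positive genes include Icos, which was tested through DTR+ arrays only, and this favours a positive value. Il2ra, Ctla4, Il10 and Klrg1, which are also used to describe Tregs, were too dim to be tested. In whole muscle, fewer cells of a type cannot be told apart from less RNA per cell.

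A single gene differed between the genotypes at day 4. Gm4841, a member of the immunity-related GTPases, proteins that attack the vacuoles of intracellular microbes, rose in DTR+ muscle. Of 13278 genes tested with limma, 1 rose and 0 fell (0.00753% called, adjusted p under 0.05). The log2 intensity of Gm4841 was 9.94 and 9.39 in the DTR+ samples and 6.83, 7.15 and 7.37 in the DTR- samples. Both DTR+ samples lay far above every DTR- sample. The log2 fold change was 2.55 ± 0.30 (SE, 2 against 3, limma adjusted p = 0.001), or 5.84-fold, and it lay between 2.27 and 2.82 in the alternative analyses and with each day 4 sample left out, passing in each.

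An unadjusted limma p under 0.05 was found for 274 genes (2.06% of those tested), 173 of them higher (1.3%) and 101 lower (0.761%). This share is below the 0.05 that such a threshold admits when nothing differs, so the count is no excess of differences. The next smallest adjusted p was 0.112, for Slfn4, so every other gene below is given by its values and did not pass. Without DTR+ replicate 2, limma called 5 genes: Gm4841, and as lower Slfn4, Mx1, Phf11a and Ms4a4c. Samples of the genotypes did not overlap for 469 genes higher in DTR+ muscle (3.53%) and 450 lower (3.39%). A random order of 2 and 3 samples would give a share of 0.1 in each direction, which is more than either. The log2 fold change was at least 1 in 22 genes (0.166%) and at most -1 in 13 (0.0979%). The median over all genes was 0.02, and 55.5% of genes had a positive sign.

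**Figure D1:**
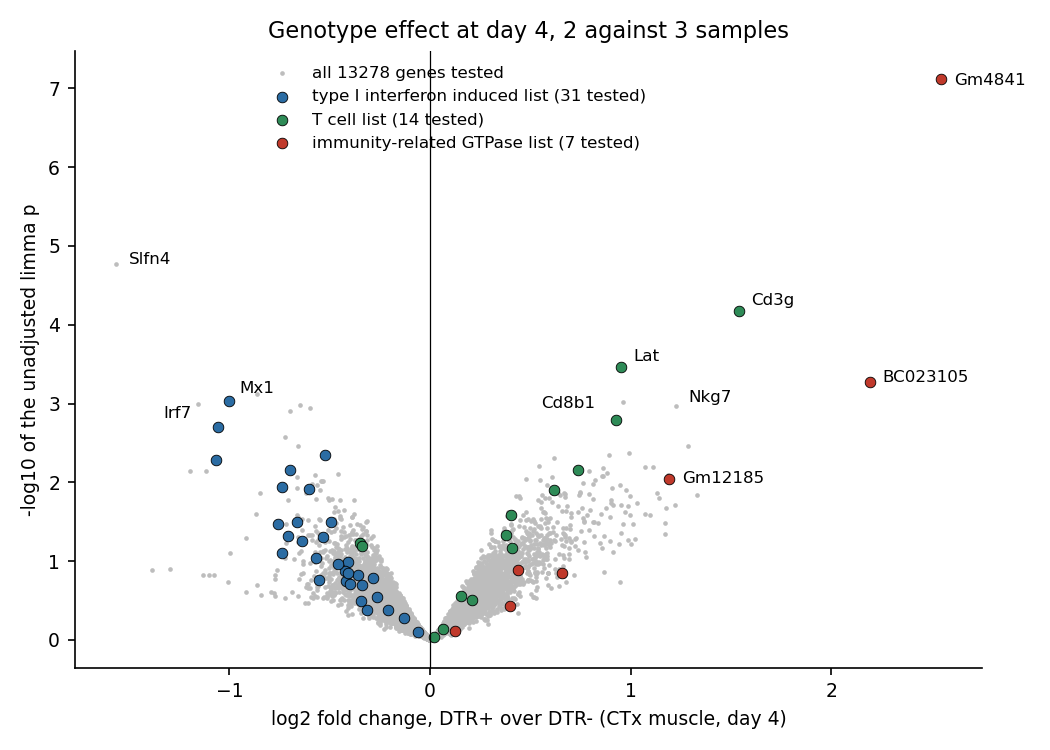
Log2 fold change of DTR+ over DTR- CTx muscle at day 4 (horizontal) against the -log10 of the unadjusted limma p (vertical) for the 13278 genes tested, with members of 3 gene lists coloured. Gm4841 alone passed the adjusted threshold; all 31 genes of the type I interferon list lie left of 0 and 12 of 14 T cell genes lie right of it.

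The other immunity-related GTPases lay on the same side as Gm4841 without passing. This list, 7 genes tested, was drawn up after Gm4841 had been seen, and all 7 members were positive, with a median log2 fold change of 0.65. Without Gm4841 itself the other 6 were positive with a median of 0.55, and their mean log2 intensity was 9.33 and 8.39 in the DTR+ samples and 8.01, 8.03 and 8.04 in the DTR- samples. In DTR+ replicate 3 that mean includes BC023105 at 10.60, far above its DTR- values. Gm12185 (6.70) and Irgm1 (9.52) also exceeded their DTR- values there, but Iigp1 (8.35), Gm12250 (8.17) and Gm4951 (7.01) did not. The median of these 6 was 0.16 without DTR+ replicate 2 and 1.17 without DTR+ replicate 3. BC023105, annotated in RefSeq as a pseudogene and 7 places from Gm4841 in the gene order of the same chromosome, read 11.78 and 10.60 in the DTR+ samples and 8.07, 9.23 and 9.70 in the DTR- samples. The groups did not overlap, although the DTR- samples spread widely. The log2 fold change was 2.19 ± 0.52 (SE, limma adjusted p = 1).

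Gm12185, another GTPase of the family, read 6.92 and 6.70 in DTR+ muscle and 5.78, 5.75 and 5.33 in DTR- muscle, where it was below the testing level on every array; in DTR+ muscle it exceeded that level on 1 of 2 arrays. The fitted log2 fold change was 1.19 ± 0.41 (SE), and against the testing level DTR+ muscle was at least 1.08-fold higher. Irgm1, a regulator of the family, read 9.75 and 9.52 against 9.27, 9.18 and 9.15, a log2 fold change of 0.44 ± 0.28 (SE). Its groups also did not overlap, by a small margin.

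Iigp1 (Irga6), which loads onto parasite vacuoles, read 9.66 and 8.35 against 8.71, 8.01 and 8.34. It was high in DTR+ replicate 2 only, and the same held for Gm12250 (9.01 and 8.17 against 8.03, 8.53 and 8.02) and Gm4951 (8.86 and 7.01 against 8.18, 7.52 and 7.73). Without DTR+ replicate 2, 5 of the 7 genes stayed positive and the median was 0.32. Without DTR+ replicate 3 it was 1.30. Gm4841, Gm4951, Iigp1 and BC023105 are neighbours in RefSeq's gene order, and whether their probe sets also bound transcripts of one another was not tested.

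T cell genes were higher in DTR+ muscle as a group. Of 14 tested, 12 had a positive log2 fold change, with a median of 0.39 against 0.02 over all genes. None passed the adjusted threshold. At an unadjusted p under 0.05, 7 were higher, against 1.3% of all genes, and in 8 both DTR+ samples lay above all DTR- samples, against 3.53% of all genes. These counts include Cd3g and Cd8b1, which were below the testing level on every DTR- array of the series. Both were tested through DTR+ arrays only, which favours a positive value for them. The mean log2 intensity of the list was 7.30 and 7.25 in the DTR+ samples and 6.94, 6.76 and 6.89 in the DTR- samples. Both DTR+ samples were above the range of DTR- muscle, by more than the spread within either group.

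Cd3g, the CD3 gamma chain of the T cell receptor complex, read 7.35 and 7.19 in the DTR+ samples and 5.89, 5.48 and 5.81 in the DTR- samples. It exceeded the testing level on both DTR+ arrays and on no DTR- array. Its log2 fold change was 1.54 ± 0.30 (SE, limma adjusted p = 0.3), at least 1.48-fold against the testing level. Its partner Cd3e read 7.56 and 7.97 against 7.24, 6.97 and 6.88, a log2 fold change of 0.74 ± 0.24 (SE). Lat, the adaptor that relays the receptor's signal, read 7.59 and 7.38 against 6.57, 6.30 and 6.72. Lat's groups did not overlap, and its log2 fold change was 0.95 ± 0.22 (SE), at least 1.72-fold against the testing level.

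The coreceptors went different ways. Cd8b1, a chain of the cytotoxic T cell coreceptor, read 7.22 and 6.87 against 6.34, 5.98 and 6.03, the last 3 all below the testing level, against which DTR+ muscle was at least 1.27-fold higher (fitted log2 fold change 0.93 ± 0.25, SE). Cd8a, the other chain, read 7.26 and 6.79 against 6.73, 6.21 and 6.30 (0.62 ± 0.22, SE). Cd4, the coreceptor of helper T cells and Tregs that some macrophages also carry, read 7.39 and 7.31 against 7.66, 7.96 and 7.49. Cd4 was lower in both DTR+ samples than in any DTR- sample, by -0.35 ± 0.17 (SE). None of the 3 passed the adjusted threshold.

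Cytotoxic genes were mixed. Of 11 genes of the NK and cytotoxic list, 9 were positive, with a median log2 fold change of 0.19. The positive genes include Gzmk and Ifng, which were likewise tested through DTR+ arrays only. Nkg7, a granule membrane protein of cytotoxic lymphocytes, read 8.94 and 8.62 in DTR+ muscle and 8.12, 7.14 and 7.41 in DTR- muscle. The groups were apart, and the log2 fold change was 1.23 ± 0.32 (SE). Gzmb, the protease granzyme B, read 8.09 and 7.14 against 6.90, 6.70 and 6.36 (0.96 ± 0.25, SE). The Gzmb value was 0.49 without DTR+ replicate 2 and 1.44 without DTR+ replicate 3.

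Gzmk, another granzyme, read 6.48 and 6.12 against 5.91, 5.72 and 5.84, all below the testing level. Ifng, which encodes interferon gamma, was also below that level in all 5 samples (6.40 and 6.39 against 6.40, 6.18 and 6.06). Xcl1, a chemokine of NK and CD8 T cells, read 6.14 and 6.15 against 6.87, 6.38 and 6.78, a log2 fold change of -0.53 ± 0.18 (SE). The NK receptor Ncr1 read 5.77 and 5.31 against 6.83, 5.56 and 5.88, above the testing level in DTR- replicate 1 only. Klrb1c, another NK receptor, read 4.43 and 4.44 against 5.59, 4.58 and 4.63. Its DTR+ samples lay below every DTR- sample, but all 5 values were below the testing level. Cxcr6, a receptor of activated T cells, read 6.97 and 6.26 against 6.30, 5.33 and 5.79, and Icos, a costimulatory receptor, read 7.26 and 6.54 against 6.43, 6.32 and 6.21. Both exceeded the testing level in DTR+ replicate 2 only, and the groups overlapped for Cxcr6. Against that level Icos was at least 1.15-fold higher in DTR+ muscle. Cxcr6 and Icos were below it on every DTR- array of the series. They too were tested through DTR+ arrays only, which favours a positive value.

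**Figure D2:**
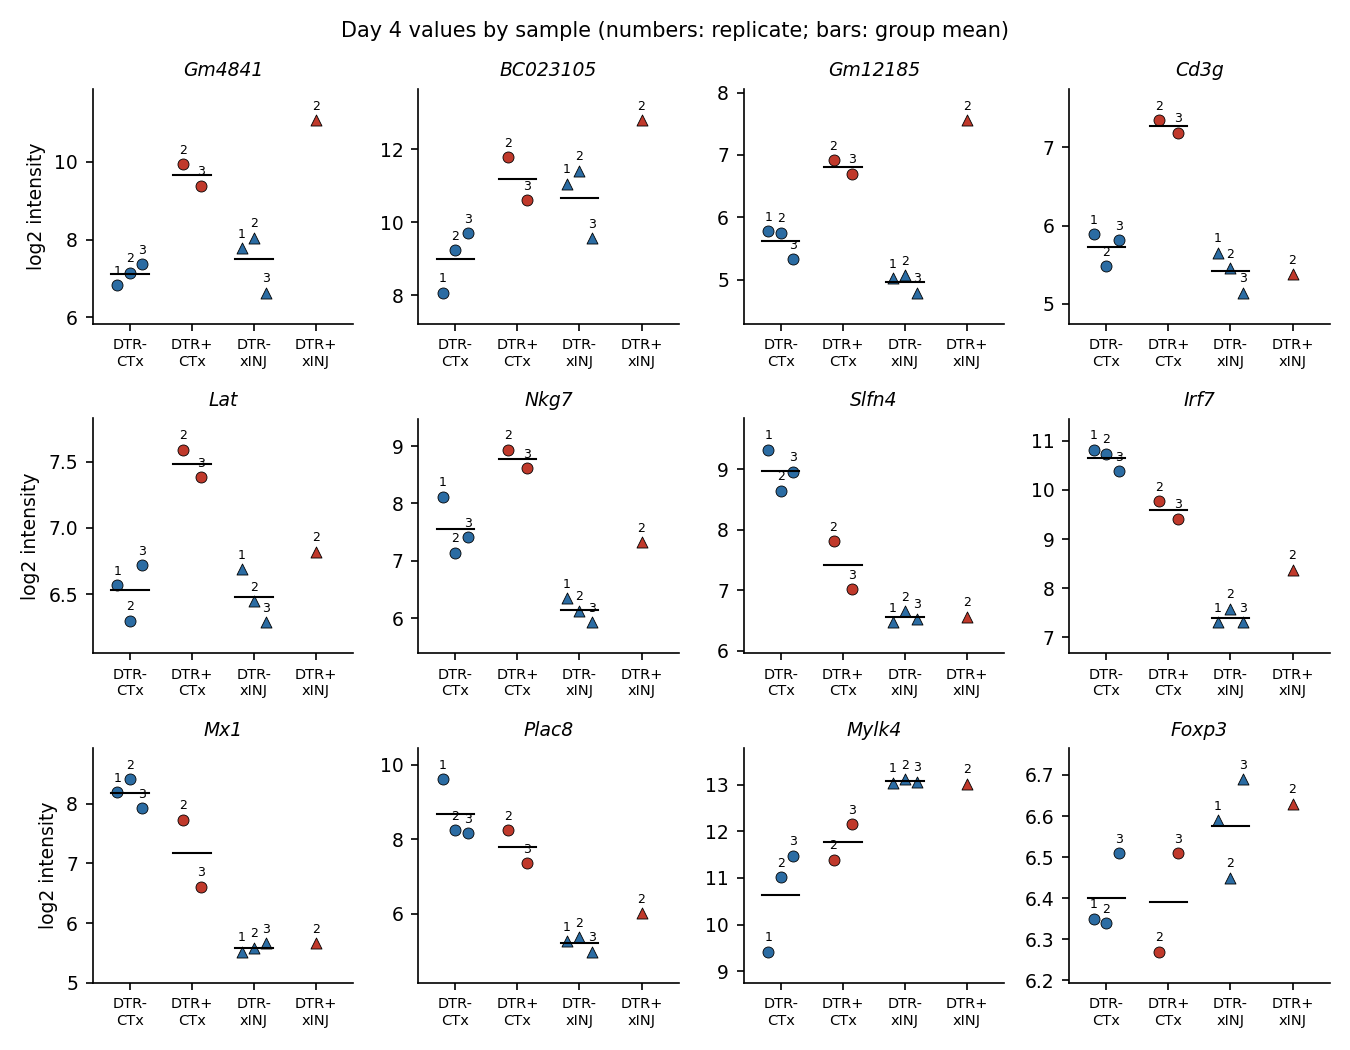
Log2 intensity of 12 genes in each day 4 sample (vertical axes, each with its own range), with CTx groups as circles and xINJ groups as triangles, DTR+ in red, DTR- in blue, and bars at the mean of groups with more than 1 sample. The DTR+ CTx samples lie above all DTR- CTx samples for Gm4841, BC023105, Gm12185, Cd3g, Lat and Nkg7 and below them for Slfn4, Irf7 and Mx1, whereas those of Plac8, Mylk4 and Foxp3 overlap.

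Genes that interferon gamma induces showed a small shift that 1 sample carried. Of 22 tested, 20 had a positive log2 fold change, the median was 0.23, 2 were higher at an unadjusted p under 0.05 (1.3% of all genes) and 0 passed the adjusted threshold in limma. The list mean was 9.07 in DTR+ replicate 2, 8.51 in DTR+ replicate 3 and 8.60, 8.46 and 8.43 in the DTR- samples. DTR+ replicate 3 therefore lay within the DTR- range. Gbp4, a guanylate-binding protein, read 9.88 and 8.39 against 8.11, 7.78 and 8.53, and Gbp5, which promotes inflammasome activity, read 8.21 and 7.26 against 7.20, 7.24 and 7.17. Without DTR+ replicate 2 the list had 14 of 22 positive members and a median of 0.04.

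Antigen presentation genes were close to 0. In the class I list 4 of 7 genes were positive (median 0.05) and in the class II list 6 of 7 (median 0.16). Ciita, the master regulator of class II genes, read 8.57 and 8.20 against 8.34, 7.99 and 8.05 and overlapped between the genotypes. H2-Eb2, a class II chain gene, was lower in DTR+ muscle (6.09 and 6.09 against 6.97, 6.50 and 6.74). Its log2 fold change of -0.65 ± 0.17 (SE) did not pass. DTR- replicate 1 alone exceeded the testing level, against which DTR+ muscle was at least 1.02-fold lower.

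Type I interferon genes lay on the opposite side. All 31 genes of the list that were tested had a negative log2 fold change, with a median of -0.49 against 0.02 over all genes. At an unadjusted p under 0.05, 12 were lower (38.7%), against 0.761% of all genes, and in 13 both DTR+ samples lay below all DTR- samples, against 3.39% of all genes. None passed the adjusted threshold in limma with all samples. The list mean was 9.01 in DTR+ replicate 2, 8.25 in DTR+ replicate 3 and 9.19, 9.19 and 9.07 in the DTR- samples. Both DTR+ samples were below the DTR- range, replicate 2 by a narrow margin and replicate 3 by a wide one.

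How far a gene was lower depended on the DTR+ sample. Irf7, the factor that amplifies type I interferon production, read 9.77 and 9.41 in DTR+ muscle and 10.82, 10.74 and 10.38 in DTR- muscle. It was low in both DTR+ samples, with a log2 fold change of -1.06 ± 0.29 (SE). Mx1, an antiviral GTPase, read 7.73 and 6.61 against 8.19, 8.41 and 7.92 (-1.0 ± 0.26, SE). Ifit2, an RNA-binding antiviral protein, read 9.23 and 7.73 against 9.21, 9.18 and 9.19, so that only DTR+ replicate 3 was low.

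Oasl1, which restrains Irf7 translation, read 7.98 and 8.07 against 8.57, 8.76 and 8.30, with both DTR+ samples low. Bst2 (tetherin), which holds budding viruses at the cell surface, read 8.54 and 8.55 against 9.65, 8.91 and 8.87 (-0.60 ± 0.22, SE). Ifi27l2a read 8.05 and 7.69 against 9.85, 8.72 and 8.24, a log2 fold change of -1.06 ± 0.34 (SE). The highest value of both Bst2 and Ifi27l2a was in DTR- replicate 1. Without DTR+ replicate 3, 21 of the 31 genes stayed negative and the list median was -0.11. Without DTR+ replicate 2 all 31 were negative, the median was -0.90 and Mx1 passed. Without DTR- replicate 1 all 31 were negative and the median was -0.49.

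Slfn4, a Schlafen gene that myeloid cells switch on with interferon, had the second-smallest p of all genes. It read 7.81 and 7.02 in DTR+ muscle and 9.33, 8.65 and 8.96 in DTR- muscle. The groups were clearly apart. The log2 fold change was -1.57 ± 0.27 (SE, limma adjusted p = 0.112), and without DTR+ replicate 2 it was -1.96 with an adjusted p of 0.032. In the other settings its adjusted p lay above 0.05, up to 1. Of the 8 Schlafen genes tested, a list drawn up after Slfn4 had been seen, 7 were negative with a median of -0.48. Slfn5 read 9.85 and 9.22 against 10.19, 9.86 and 10.08, and Slfn1 read 9.83 and 8.71 against 9.99, 9.96 and 9.78, low in DTR+ replicate 3 only. Without DTR+ replicate 3 the Schlafen median was -0.06.

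Phf11a, from a family of interferon-induced genes, read 6.98 and 5.67 against 7.38, 7.91 and 7.15, a log2 fold change of -1.16 ± 0.30 (SE). Pilrb1, which encodes an activating receptor of myeloid cells, read 6.66 and 6.32 against 7.62, 7.43 and 7.0, at least 1.56-fold lower against the testing level. Rpl10l, a ribosomal protein gene, read 6.86 and 6.94 against 7.65, 7.45 and 7.39. These genes were lower in both DTR+ samples than in any DTR- sample, and none passed the adjusted threshold.

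**Figure D3:**
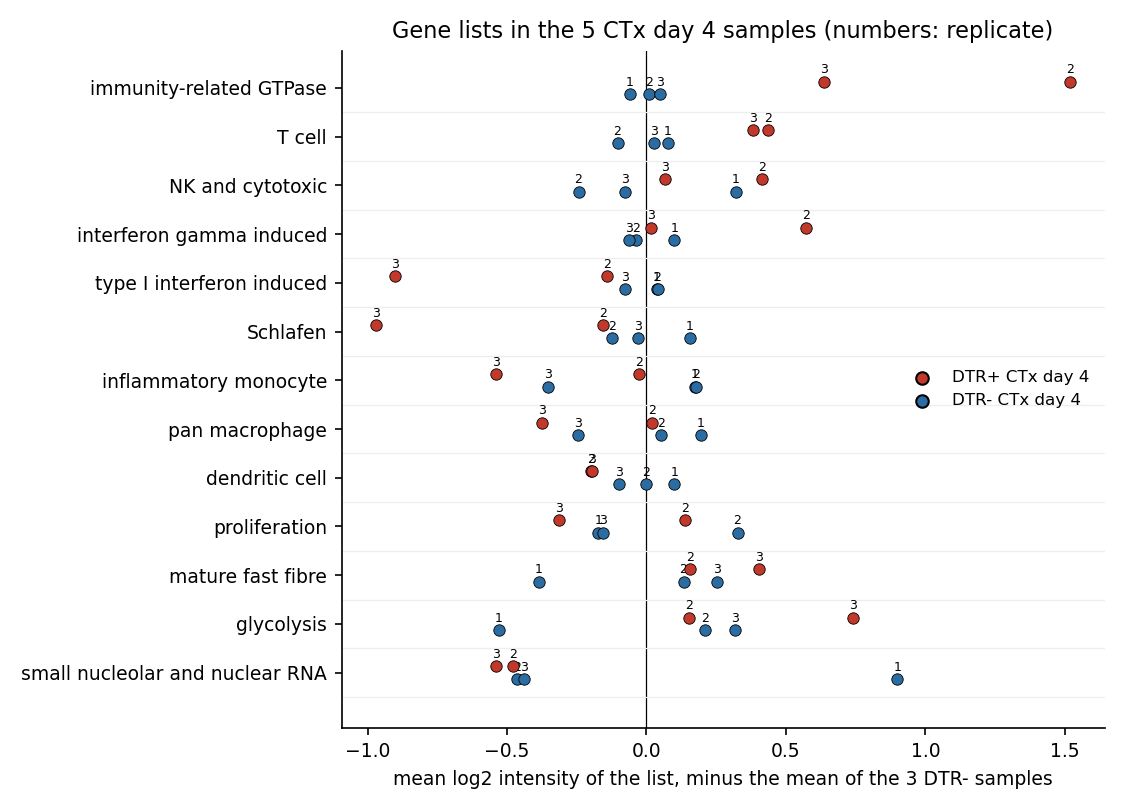
Mean log2 intensity of 13 gene lists in each of the 5 CTx day 4 samples, minus the mean of the 3 DTR- samples (horizontal), with DTR+ in red, DTR- in blue and replicate numbers above the points. The immunity-related GTPase list (drawn up after Gm4841 was seen, and including it) and the T cell list place both DTR+ samples to the right of all DTR- samples, the type I interferon list places them to the left with replicate 3 far from replicate 2, and the fibre, glycolysis and small nuclear RNA lists set DTR- replicate 1 apart.

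Promoter sequence was examined because type I interferon and interferon gamma act through related DNA elements. Promoters (250 bases before to 50 after the start, RefSeq, GRCm38.p6) were available for 22 of the 31 type I interferon genes, 14 of the 22 interferon gamma genes, 7 of the 8 Schlafen genes and 3 of the 7 immunity-related GTPases. The core of the interferon stimulated response element (GAAA, any 2 bases, GAAA), searched on both strands, occurred in 11 type I promoters (50%), 6 interferon gamma promoters (42.9%), 3 Schlafen promoters (42.9%) and 3 GTPase promoters (100%), against 3.62% of the 10548 tested genes with a promoter. The gamma activated site TTCNNNGAA, which reads the same on both strands and can overlap the first motif, occurred in 18.2%, 35.7%, 0% and 66.7% of them in the same order, against 8.11%. The windows below are shown to set genes with a positive day 4 log2 fold change (Gm12185, Irgm1, Gbp5) beside genes with a negative one (Ifit3, Oas3, Bst2, Phf11a). Each is 50 bases of the gene's own strand, 5′ to 3′, with an occurrence of the motif or its reverse complement in capitals. In the Irgm1 and Bst2 windows another occurrence overlaps the capitals and is partly in lower case. These are descriptions of letters, not of binding.
Gm12185, chr11:48927228-48927277, minus strand: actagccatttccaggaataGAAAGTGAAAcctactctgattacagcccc
Irgm1, chr11:48871415-48871464, minus strand: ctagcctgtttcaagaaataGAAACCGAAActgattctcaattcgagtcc
Gbp5, chr3:142496749-142496798, plus strand: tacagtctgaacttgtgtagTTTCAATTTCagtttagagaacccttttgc
Ifit3, chr19:34583353-34583402, plus strand: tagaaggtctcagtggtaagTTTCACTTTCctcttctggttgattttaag
Oas3, chr5:120777705-120777754, minus strand: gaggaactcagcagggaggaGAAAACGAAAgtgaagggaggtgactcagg
Bst2, chr8:71537567-71537616, minus strand: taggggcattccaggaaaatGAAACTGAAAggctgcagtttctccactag
Phf11a, chr14:59297522-59297571, minus strand: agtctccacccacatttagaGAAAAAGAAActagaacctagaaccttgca

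Myeloid genes were lower only by small amounts. Of 16 inflammatory monocyte genes 14 were negative (median -0.20) and of 27 pan macrophage genes 22 (median -0.13). Ccr2, which monocytes need to enter tissue, read 9.17 and 7.87 against 9.66, 8.52 and 9.31, and Plac8, abundant in monocytes, read 8.24 and 7.36 against 9.61, 8.24 and 8.16. Both overlapped between the genotypes, with log2 fold changes of -0.64 ± 0.34 and -0.87 ± 0.36 (SE). The macrophage list mean was 11.11 and 10.72 in the DTR+ samples and 11.29, 11.15 and 10.85 in the DTR- samples. Without DTR+ replicate 3 the medians were -0.02 for the monocyte list and 0.04 for the macrophage list. DTR+ replicate 3 thus held the lowest values of both the type I interferon and the macrophage lists, and the part of macrophage content in the interferon values was not tested.

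Dendritic cell genes were lower in both DTR+ samples. Of 13 tested, 11 were negative (median -0.19), 3 were lower at an unadjusted p under 0.05 (0.761% of all genes) and 0 passed in limma. In 5, both DTR+ samples lay below all DTR- samples (3.39% of all genes). Siglech, a receptor of plasmacytoid dendritic cells, which are strong producers of type I interferon, was lower by -0.53 ± 0.16 (SE), with the DTR+ samples below the testing level. Ccr7, the receptor that guides dendritic cells to lymph nodes, was lower by -0.49 ± 0.18 (SE). The list median stayed between -0.28 and -0.17 with each day 4 sample left out.

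Muscle fibre and metabolic genes followed DTR- replicate 1 more than the genotype. Of 32 mature fast fibre genes 26 were positive (median 0.24), and all 18 glycolysis genes were (median 0.39). Mylk4, a kinase gene of mature fibres, read 11.39 and 12.15 in DTR+ muscle and 9.42, 11.02 and 11.48 in DTR- muscle, and Phkg1, the muscle phosphorylase kinase subunit, read 9.23 and 10.07 against 7.61, 9.38 and 9.22. In both, the low value was that of DTR- replicate 1. Without it the medians were 0.08 for fast fibre genes and 0.13 for glycolysis genes. Fbp2, the muscle fructose bisphosphatase, read 7.19 and 8.32 against 6.64, 6.77 and 7.18, a log2 fold change of 0.89 ± 0.28 (SE) that did not pass.

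The small nucleolar and nuclear RNAs, also listed after the values had been seen, were negative in 41 of 45 (median -0.53), and without DTR- replicate 1 in 30 of 45 (median -0.06).

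Muscle stem cell genes lay close to 0 at day 4. Of 35 myogenic genes 19 were positive (median 0.01) and 0 had an unadjusted limma p under 0.05. Pax7, the marker of muscle stem cells, read 8.97 and 9.14 against 8.46, 9.39 and 8.80. Myod1 read 11.33 and 11.39 against 10.74, 11.57 and 11.05, and Myog, which drives differentiation, 10.42 and 10.50 against 10.72, 10.61 and 10.18. The groups overlapped for all 3. The median was -0.10 for 33 proliferation genes and turned to 0.14 without DTR+ replicate 3 and 0.09 without DTR- replicate 2; it was -0.05 for 37 collagen and matrix genes.

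**Figure D4:**
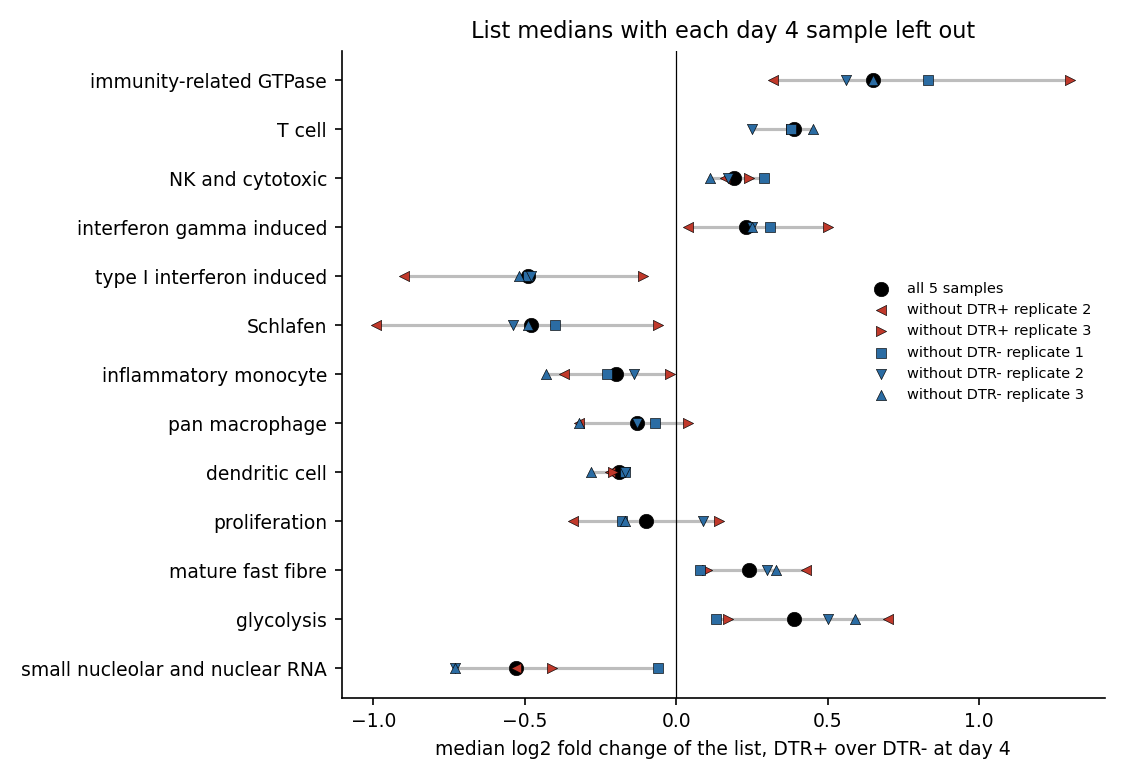
Median log2 fold change of 13 gene lists at day 4 (horizontal) with all 5 samples (black) and with each sample left out in turn (red for DTR+, blue for DTR-). The T cell median lies between 0.25 and 0.45, the type I interferon median is -0.90 without DTR+ replicate 2 and -0.11 without DTR+ replicate 3, and the small nuclear RNA median moves to -0.06 without DTR- replicate 1.

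The day 8 CTx samples (3 DTR+ and 3 DTR-, all of them other samples) gave the later effect for comparison. At day 8, 489 genes were called (3.68%), 402 higher (3.03%) and 87 lower (0.655%). With replicate number as a block the count was 638 in the fit of all samples and 1087 in the CTx samples alone. It fell to 265 without DTR+ day 8 replicate 3, 276 without DTR- day 8 replicate 1 and 290 without DTR- day 8 replicate 2. Of the 402 genes higher at day 8, 195 were positive at day 4 (48.5%, against 55.5% of all genes), with a median day 4 log2 fold change of -0.008 against 0.96 at day 8. At an unadjusted p under 0.05, 25 of the 402 were higher at day 4 (6.22%, against 1.3% of all genes) and 5 were lower (1.24%, against 0.761%). The p-values of both days use the same spread estimate for each gene, so a small p at day 8 favours one at day 4. Some of the 402, such as Cd3g, were also tested through DTR+ arrays only. The shares over all genes are therefore not an even comparison. Of the 87 lower at day 8, 29 were negative at day 4 (33.3%, against 44.5% of all genes). Across the 13278 genes the day 4 and day 8 log2 fold changes had a Pearson r of -0.115 and a Spearman rho of -0.178; genes are not independent replicates, and this is a description.

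Gm4841 was called at both days. Its log2 fold change was 2.27 at day 8 (limma adjusted p = 3.62e-05), and the difference between the days was -0.28 ± 0.40 (SE, limma adjusted p = 0.927). The T cell list, with a median of 0.39 at day 4, reached 0.75 at day 8, when 10 of 14 genes were called higher, against 3.03% of all genes. Cd3g and Cd8b1, tested through DTR+ arrays only, are among those called. None of the 14 was called for the difference between the days. Cd3g, for example, was higher by 2.14 at day 8, and the difference of 0.60 ± 0.40 (SE) had a limma adjusted p of 0.696.

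The difference between the days was called for 78 genes (0.587%), 74 with a larger value at day 8 (0.557%) and 4 with a smaller one (0.0301%). Of the 74, 72 were also called higher at day 8, and 44 had a negative day 4 log2 fold change, against 44.5% of all genes. Selection by the difference, which is the day 8 value minus the day 4 value, favours both counts. Neither is a separate result about these genes. Rnase2a, an eosinophil-type ribonuclease gene, was below the testing level in all 5 day 4 samples and at least 9.25-fold higher in DTR+ muscle at day 8. It was tested through DTR+ arrays only, which favours a positive day 8 value. Retnla, a secreted marker of type 2 macrophages, read 7.39 and 8.90 against 7.42, 6.77 and 7.91 at day 4, where the genotypes overlapped, and its log2 fold change at day 8 was 4.44.

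Arg1, the arginase of the same macrophages, was below the testing level at day 4 (log2 fold change -0.10), and at day 8 it was at least 2.83-fold higher. Like Rnase2a, Arg1 was tested through DTR+ arrays only. The monocyte chemokine Ccl8 moved from -0.22 to 2.85. Interferon gamma genes supplied 7 of the calls out of 22 tested, repair macrophage genes 5 of 24, chemokine genes 5 of 27, pan macrophage genes 4 of 27 and immunity-related GTPases 3 of 7, against 0.557% of all genes. Of the 31 type I interferon genes 0 were called for the difference in limma, and their median difference was 0.59.

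Phf11a moved from -1.16 to 0.66 (difference 1.81, limma adjusted p = 0.0453) and Plac8 from -0.87 to 1.43 (difference 2.30, limma adjusted p = 0.0313), calls kept in 11 of 23 and 15 of 24 alternative settings. The 4 genes with a smaller value at day 8 were Mylk4 (1.13 to -1.70), Ddit4l (0.88 to -1.28), an inhibitor of growth signalling, Plaat1 (0.50 to -1.02) and Rcan2 (0.35 to -0.89), a calcineurin regulator. All 4 were called lower at day 8 and had their lowest day 4 value in DTR- replicate 1. Selection by the difference favours a low day 8 and a high day 4 log2 fold change in them.

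The number of differences depended on single samples. It was 12 without DTR+ day 4 replicate 3, 223 without DTR+ day 4 replicate 2, 28 without DTR- day 4 replicate 1 and 153 without DTR- day 4 replicate 3. For the day 8 samples it was 138, 46 and 35 without DTR+ replicates 1, 2 and 3, and 26, 31 and 47 without DTR- replicates 1, 2 and 3. With replicate number as a block it was 153 in the fit of all samples and 22 in the CTx samples.

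**Figure D5:**
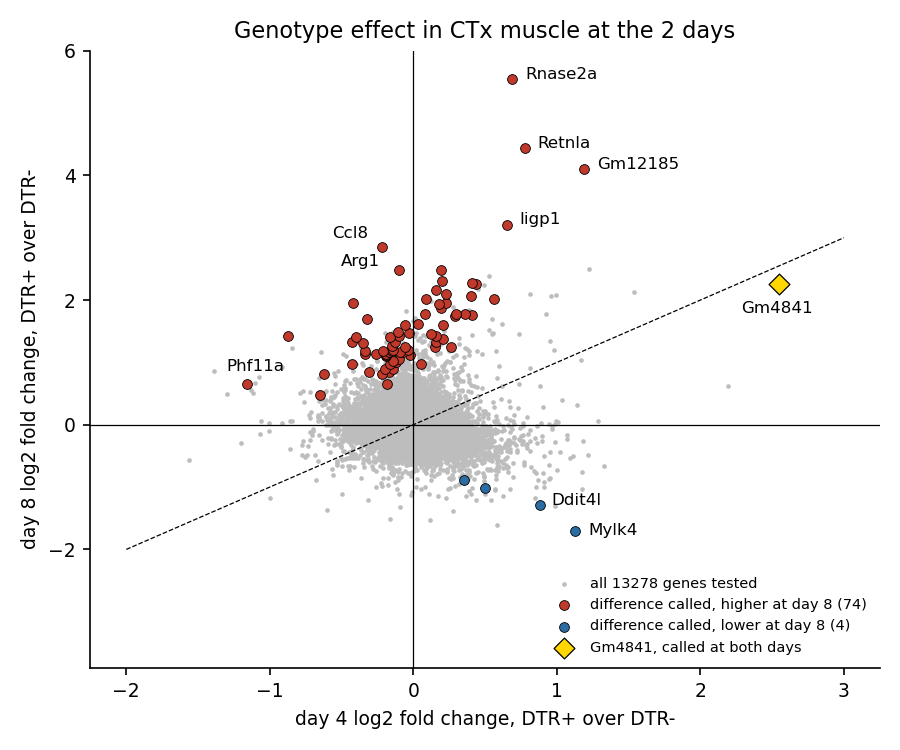
Log2 fold change of DTR+ over DTR- CTx muscle at day 4 (horizontal) and at day 8 (vertical) for the 13278 genes tested, with equal effects on the dashed line and the 78 genes called for the difference in colour. The 74 red genes lie above the line and range from -1.16 to 1.19 at day 4; Gm4841 lies near the line at 2.55 and 2.27.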

How the data were processed

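The authors deposited RMA intensities per probe set on a linear scale. The submitters' processing notes name Affymetrix Power Tools, with no version in the sources used here. RMA quantile-normalizes arrays, so values are relative to the other arrays. Log2 was taken here. Of 24922 probe sets, 21425 have 1 gene symbol in the array annotation, 1399 several and 2098 none; the first stand for 19752 genes (brightest probe set for each of 921 genes with several). The testing level was each array's 40th percentile (6.62 to 6.84, log2), and the 13278 genes above it on 2 or more of the 21 arrays were tested. Folds written "at least" set the brighter mean against it and it is not a detection limit.

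All 21 samples entered 1 limma fit (limma 3.58.1, R 4.3.3; 9 groups, 12 residual and 6.56 prior degrees of freedom), two-sided, with Benjamini-Hochberg adjustment over all genes tested and a threshold of 0.05. The contrasts were DTR+ minus DTR- at day 4, at day 8, and their difference. The fit was also run on simulated data with independent normal noise of each gene's spread. Those data had no outlying sample and no correlation between genes. The run therefore does not show how the fit copes with such features of the real samples. An exact permutation test of 2 against 3 samples cannot go below 0.1 and was not used. Lists are described by counts and medians, with no set test.

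Genes named are up to 12 per direction that passed at day 4, topped up to 6 by smallest p; up to 4 per list by p; up to 6 per direction for the difference; genes called at both days; and a fixed set (Foxp3, Il2ra, Ctla4, Il10, Klrg1, Areg, Ifng, Gzmb, Cxcl9, Cd3e, Cd8a, Cd4, Adgre1, Ccr2, Ly6c2, Mrc1, Spp1, Pax7, Myod1, Myog, Myh3, Myh4, Ckm, Col1a1, Mki67). Areg, Ly6c2 and Spp1 had no probe set with that single symbol. Other members, such as Ifit2 and Bst2, were chosen after their values were seen. The comparison, members and lists were chosen with earlier results of these data known.

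Samples with the same title number deviated together at day 8 (r = 0.545, 0.391 and 0.234) but not at day 4 (-0.448 and -0.069), so the numbers meet the criterion for pairs at day 8 only. The main fit has no block; blocked fits, which apply the block at both days, are alternatives. Alternatives changed the filter, normalization, probe set rule, pseudocount, fit, threshold, array weights, block and samples. RefSeq's gene table (GRCm38.p6) gave names and gene order only.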

Additional observations from a re-analysis of the deposited data

Results flagged for a closer look

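The difference between the genotype effects at day 8 and day 4 was itself tested in limma, and the genes below passed at an adjusted p under 0.05; each value is the day 8 minus the day 4 log2 fold change. Among genes of macrophages, monocytes and eosinophils the difference was 4.86 for Rnase2a, 3.66 for Retnla, 3.07 for Ccl8, 2.58 for Arg1, 2.30 for Plac8, 1.72 for Mgl2, 1.48 for C1qa, 1.75 for Cfp, 1.32 for Mrc1 and 1.26 for Ccl24. Among immunity-related GTPases, antigen presentation genes and the interferon-induced Phf11a it was 2.91 for Gm12185, 2.56 for Iigp1, 1.82 for Irgm1, 1.81 for Phf11a, 1.48 for H2-Q4, 1.16 for H2-Ab1, 1.14 for H2-M3, 1.13 for H2-Eb2 and 1.00 for Ciita. In the other direction it was -2.83 for Mylk4, -2.16 for Ddit4l, -1.52 for Plaat1 and -1.24 for Rcan2. Of these, Rnase2a (23 of 23) and Mgl2 (24 of 24) were called in every alternative setting, and Retnla (23 of 24), Ccl8 (23 of 24), Arg1 (22 of 23), Cfp (21 of 24), Ccl24 (20 of 22) and Gm12185 (19 of 23) in most. Rnase2a, Arg1 and Ccl24 were below the testing level on every DTR- array of the series. They were tested through DTR+ arrays only, which favours a positive difference. The least stable calls were Iigp1 (9 of 24), H2-Ab1 (10 of 24), Ciita, Mrc1 (each 11 of 24), Phf11a (11 of 23), C1qa (13 of 24) and Ddit4l (14 of 24). The other 8 were called in 15 to 18 settings of 22 or 24.

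A signal outside the comparison was found in the single DTR+ xINJ sample of day 4, xINJ being a group named by title only. Gm4841 had a log2 intensity of 11.08 there, against 7.78, 8.05 and 6.63 in the DTR- xINJ samples, and BC023105 had 12.80, against 11.06, 11.41 and 9.56. With 1 sample there is no test.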

How the results depend on the processing

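With 2 DTR+ samples, the day 4 comparison resolves only large differences, and signal near background limits genes such as Cd3g and Foxp3. Gm4841 passed in each of its 18 settings (log2 fold change 2.27 to 2.82, adjusted p 4.33e-05 to 0.032). The day 4 count of 1 became 4 with the replicate block in CTx samples only (Gm4841, Cd3g, BC023105 and Nkg7) and 274 at an unadjusted p under 0.05; it lay between 1 and 5 with a sample left out. The block in all samples kept it at 1. At day 4 samples with a shared number did not deviate together. The deviations of 2 DTR+ samples mirror each other, so this cannot decide whether the numbers pair samples. Over the lists not drawn up after seeing values (which leaves out Gm4841), the count of members called was 0, became 2 with the replicate block in CTx samples only, and lay between 0 and 1 with a sample left out. The day 8 count of 489 became 1854 with array weights, whose estimation did not fully converge, 1087 with the replicate block in CTx samples, 206 with a log2 fold change of at least 1 required and 1758 without adjustment; it lay between 265 and 515 with a sample left out. The count of differences, 78, became 26 in a fit of the CTx samples, 50 with each array centred, 22 and 153 with the replicate block in CTx samples and in all samples, 204 at an adjusted p under 0.10 and 1381 without adjustment; it lay between 12 and 223 with a sample left out. The cause was not tested. A filter on the 5 day 4 arrays was added after seeing the data and left the day 4 count at 1. Of 3002 values of 170 named genes under alternatives, 71, of genes that did not pass, were classed as moved. A sign change in some alternative occurred in 35 of the genes. Of 647 list medians, 36 moved by more than the replicate spread.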

Other observations

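The DTR+ xINJ sample of day 4 can be set beside the CTx samples of the same day as values. Its mean log2 intensity over the 7 immunity-related GTPases was 9.72, against 7.30, 7.46 and 6.74 in the DTR- xINJ samples and 9.42 and 8.54 in the DTR+ CTx samples. For the 22 interferon gamma genes it was 8.69, against 7.37, 7.52 and 7.29 in the DTR- xINJ samples, and for the 31 type I interferon genes 7.94, against 7.18, 7.32 and 7.11. The T cell list mean was 6.69 there and 6.64, 6.54 and 6.55 in the DTR- xINJ samples, and Cd3g was below the testing level. The labels of DTR- xINJ replicate 1 disagree on its time: the title gives day 4 and another field day 8.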
